A study of Mus musculus with 4 samples.

Results

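The genes Klf2, S1pr1, S1pr2, S1pr4, Gpr183 and Cd69, which place follicular helper T (Tfh) cells in lymphoid tissue were followed in the deposited expression table. They were taken by gene symbol, and all 6 were found among the 23997 genes listed. RNA sequencing had been done on Tfh cells, a CD4 T cell subset that supports the germinal centre response of B cells, from lymph nodes and spleens of 13-week-old C57BL/6 mice. There were 2 libraries from Apoe-/- mice (labelled Apoe-KO), which lack apolipoprotein E and are prone to atherosclerosis, and 2 from wild-type (WT) mice. The labels give no diet, no sorting scheme for the Tfh cells and no statement that replicates are separate animals or pools, so p-values cover the spread between libraries alone, and that spread may be technical.

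The transcription factor KLF2 keeps resting T cells in circulation by driving S1pr1, whose product senses sphingosine-1-phosphate (S1P) and leads cells out of lymphoid organs. Tfh cells are known for low KLF2. CD69, a surface protein induced by activation, binds S1PR1 and brings about its internalisation. S1PR2 acts the other way from S1PR1, inhibiting migration and holding cells in the germinal centre, while GPR183 (EBI2) draws cells to the outer follicle along gradients of an oxysterol made from cholesterol.

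In Apoe-KO cells Klf2 was measured at 1.64 times and S1pr4 at 1.46 times its mean in WT cells, and Cd69 was 1.74-fold lower. Gpr183, S1pr1 and S1pr2 stood at 1.16, 1.08 and 0.884 times their WT means. None of the 6 genes passed the test over all genes. This was limma on log2(FPKM + 1), where FPKM is a level scaled to transcript length and to the mapped fragments of the library, over the 11187 genes whose mean reached 1 FPKM. A gene passed at a Benjamini-Hochberg adjusted p under 0.05. By that rule 0 of 6 were called, against 1.83% of all tested genes. At an unadjusted p under 0.05 there were 3 of 6, namely Klf2 and S1pr4 higher and Cd69 lower, against 19.9% of tested genes. In all 6 the libraries of one genotype lay entirely above those of the other, which held for 50.4% of tested genes.

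**Figure D1:**
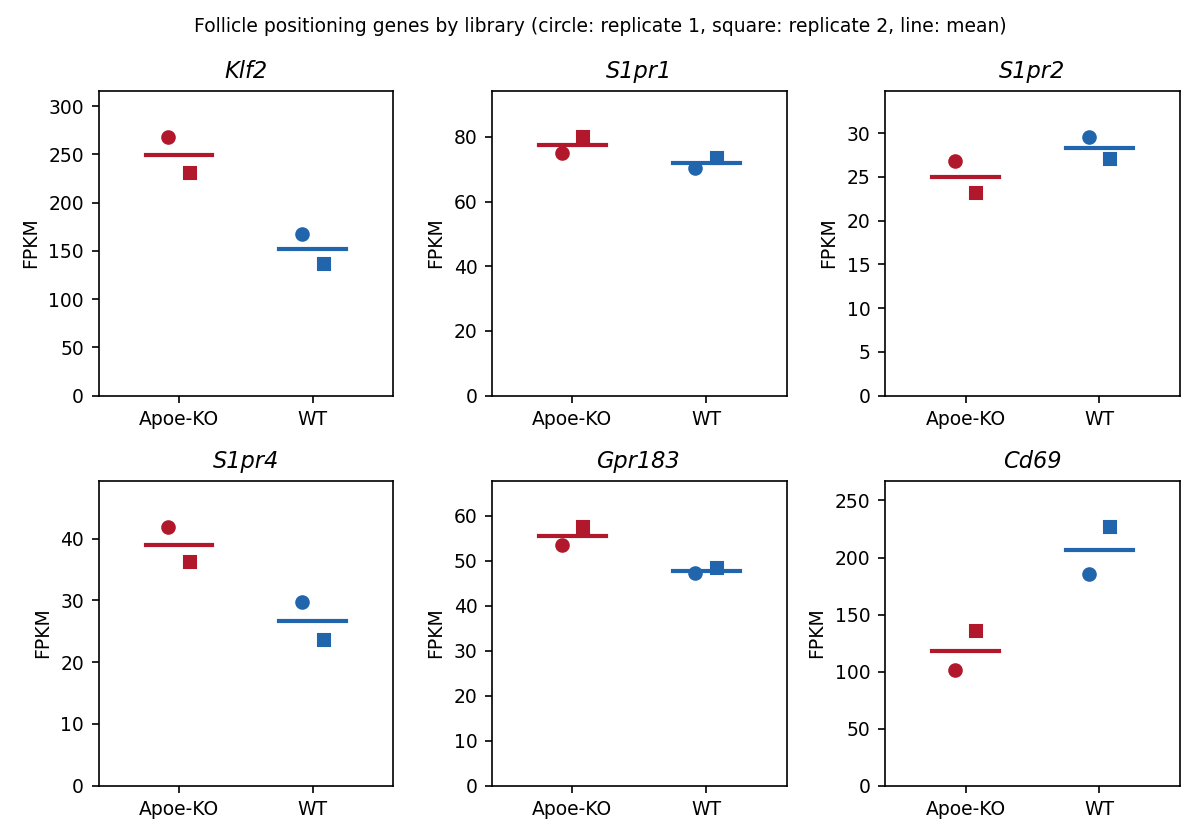
FPKM of the 6 genes in each library, Apoe-KO in red on the left of each panel and WT in blue on the right; replicate 1 is drawn as a circle, replicate 2 as a square, and each group's mean as a line. In every panel the libraries of one genotype lie on one side of the other, with the widest gaps for Klf2, S1pr4 and Cd69.

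The libraries were similar in scale: FPKM summed to 533866 and 551289 in the Apoe-KO libraries and to 522371 and 527056 in the WT libraries. Apoe itself was at 5.09 and 5.21 FPKM in the Apoe-KO libraries, against 145 and 128 FPKM in the WT libraries. The Tfh label was checked against 10 markers, among them Cxcr5, Bcl6, Pdcd1 and Il21. All 10 were above the filter, and together they summed to 1819 and 1777 FPKM in Apoe-KO and 1790 and 1776 FPKM in WT libraries. Cd4 and Cd3e, shared by all CD4 T cells, are part of that sum, and its members did not all lean one way. The PD-1 gene Pdcd1 had 203 and 179 FPKM in Apoe-KO and 283 and 260 FPKM in WT libraries (limma, adjusted p = 0.0887), whereas Cxcr5, described further on, was higher in both Apoe-KO libraries without passing. Libraries that share a replicate number also shared a pattern in their lowest values, so differences within each number are given beside those over all libraries.

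Klf2 lies on chromosome 8 at 72319062 to 72321654 (GRCm38, the assembly also called mm10). Its values were 268 and 231 FPKM in the Apoe-KO libraries, against 168 and 137 FPKM in the WT libraries. Both Apoe-KO libraries exceeded both WT libraries, and its level was above that of 97.0% of tested genes. The means were 249 ± 26.4 FPKM in Apoe-KO and 152 ± 21.8 FPKM in WT cells (SD, n = 2 each). On the log2(FPKM + 1) scale the difference, Apoe-KO minus WT, was 0.71 ± 0.14 SE (limma, adjusted p = 0.0809). It was 0.67 within replicate number 1 and 0.75 within number 2. A difference of this size or larger in either direction was seen in 3.78% of tested genes. Klf2 was thus not called. Its lowest adjusted p over all settings (limma, 0.00108) came from a fit with a replicate block, a pairing absent from the labels. The size of the difference, and whether it passed, depended on single libraries. It was 0.86 without WT replicate 1 and 0.82 without Apoe-KO replicate 2, but 0.56 without WT replicate 2 and 0.60 without Apoe-KO replicate 1. In such fits the single library left in a group is taken to vary as the other group does.

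Cd69, on chromosome 6 at 129267324 to 129275375, went the other way. It stood at 102 and 135 FPKM in the Apoe-KO libraries, against 186 and 227 FPKM in the WT libraries. Its highest Apoe-KO value was below its lowest WT value. Means were 118 ± 24.0 FPKM in Apoe-KO and 206 ± 29.0 FPKM in WT cells (SD, n = 2 each), with a log2 difference of -0.80 ± 0.17 SE (limma, adjusted p = 0.0962; -0.86 and -0.74 within numbers 1 and 2). Of tested genes, 2.82% had a difference at least as large. As for Klf2, the size and whether it passed depended on single libraries. The Cd69 difference was -0.95 without WT replicate 1 and -1.01 without Apoe-KO replicate 2, but -0.66 without WT replicate 2 and -0.60 without Apoe-KO replicate 1.

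Klf2 and Cd69 thereby changed places in the order of levels. In Apoe-KO cells Klf2 had the highest mean of the 6 genes and Cd69 the next, whereas in WT cells Cd69 was first and Klf2 second. The ratio of Klf2 to Cd69 was 2.64 and 1.70 in the Apoe-KO libraries, against 0.903 and 0.604 in the WT libraries. The ratio was thus above 1 in both Apoe-KO libraries and below 1 in both WT libraries. An exact two-sided permutation test gave p = 0.333, which is the smallest that 2 libraries against 2 allow. That outcome was fixed in advance, since Klf2 was higher and Cd69 lower in both Apoe-KO libraries without overlap. The test therefore adds nothing to the values of the 2 genes.

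None of the 3 S1P receptors among the 6 genes passed, and differences between them were not tested over all genes. S1pr1, the egress receptor (chromosome 3, 115710433 to 115715055), was at 75.0 and 79.9 FPKM in the Apoe-KO libraries, against 70.3 and 73.6 FPKM in the WT libraries. The gap between the nearest libraries of the genotypes was smaller than that between replicates, and S1pr1 had a log2 difference of 0.11 ± 0.10 SE (limma, adjusted p = 0.585; 0.09 and 0.12 within numbers 1 and 2). The 95% interval of that difference, not adjusted over genes, ran from -0.13 to 0.34, so an S1pr1 difference as large as that measured for Klf2 lay outside it. The ratio of S1pr1 to Klf2 was 0.280 and 0.347 in the Apoe-KO libraries, against 0.419 and 0.538 in the WT libraries (exact two-sided permutation p = 0.333, the smallest possible).

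S1pr2, the receptor that confines cells to the germinal centre, lies on chromosome 9 at 20965952 to 20976793. It had 26.8 and 23.2 FPKM in the Apoe-KO libraries, against 29.6 and 27.0 FPKM in the WT libraries. The nearest libraries of the 2 genotypes were almost level. Its log2 difference was -0.17 ± 0.12 SE (limma, adjusted p = 0.484; interval -0.48 to 0.13). The log2 ratio of S1pr2 to S1pr1, an egress-opposing receptor over the egress receptor, was -1.45 and -1.74 in the Apoe-KO libraries, against -1.22 and -1.41 in the WT libraries. The lower ratio in Apoe-KO cells (difference -0.28) came with p = 0.333 by the exact two-sided permutation test, again the smallest possible. This p was also fixed in advance, since S1pr2 was lower and S1pr1 higher in both Apoe-KO libraries without overlap.

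S1pr4, a receptor of lymphoid and myeloid cells, lies on chromosome 10 at 81497745 to 81500137. Its values were 41.9 and 36.2 FPKM in the Apoe-KO libraries, against 29.7 and 23.6 FPKM in the WT libraries. Both Apoe-KO libraries were higher than both WT libraries. The log2 difference was 0.54 ± 0.15 SE (limma, adjusted p = 0.141), with 0.48 within number 1 and 0.59 within number 2. In WT cells the ranges of S1pr4 and S1pr2 overlapped, and neither could be placed above the other. In Apoe-KO cells both S1pr4 values exceeded both S1pr2 values.

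Gpr183, the oxysterol receptor (chromosome 14, 121952331 to 121965193), was at 53.5 and 57.5 FPKM in the Apoe-KO libraries, against 47.3 and 48.3 FPKM in the WT libraries. The Apoe-KO values were the higher ones, with a log2 difference of 0.21 ± 0.10 SE (limma, adjusted p = 0.311; interval -0.04 to 0.45; 0.17 and 0.25 within numbers 1 and 2). In both genotypes Gpr183 stood below S1pr1 and above the other S1P receptors among the 6 genes, with no overlap between neighbouring genes at these ranks.

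**Figure D2:**
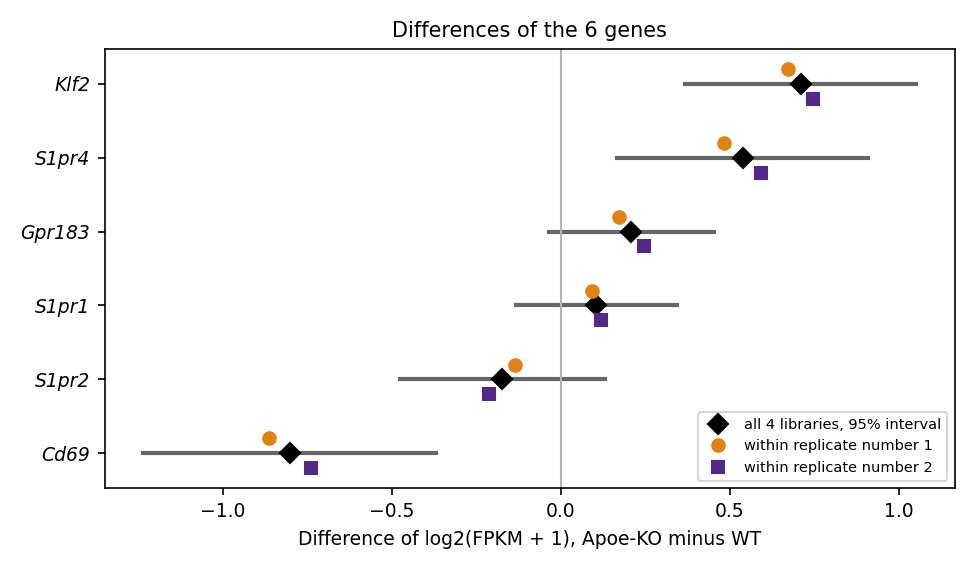
Difference of log2(FPKM + 1), Apoe-KO minus WT, for the 6 genes. Black diamonds are the estimates from all 4 libraries with their 95% intervals as grey lines, and orange circles and purple squares are the differences within replicate numbers 1 and 2. The intervals of Klf2, S1pr4 and Cd69 lie off 0 before adjustment over all genes. Both numbers give the same sign for every gene, as they must where the libraries of the genotypes do not overlap.

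Promoter sequences were matched for 4 of the 6 genes (Klf2, S1pr2, S1pr4 and Gpr183) in RefSeq's GRCm38.p6 annotation, as 250 bases before and 50 after the start. Those of Klf2, S1pr4 and S1pr2 are shown because they belong to the KLF gene itself and to S1P receptors with estimates of opposite sign, neither of which passed. KLF proteins bind the letters CACCC, and capitals mark that match, read here as GGGTG on the printed strand. Klf2 is at chr8:72318812-72319111, plus strand, S1pr4 at chr10:81500088-81500387, minus strand, and S1pr2 at chr9:20976744-20977043, minus strand.
Klf2: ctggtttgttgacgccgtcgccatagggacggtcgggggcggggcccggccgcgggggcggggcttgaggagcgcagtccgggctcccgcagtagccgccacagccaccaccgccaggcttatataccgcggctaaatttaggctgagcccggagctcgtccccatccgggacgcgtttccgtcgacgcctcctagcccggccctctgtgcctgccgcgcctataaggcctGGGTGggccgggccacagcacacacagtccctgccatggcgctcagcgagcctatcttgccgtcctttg
S1pr4: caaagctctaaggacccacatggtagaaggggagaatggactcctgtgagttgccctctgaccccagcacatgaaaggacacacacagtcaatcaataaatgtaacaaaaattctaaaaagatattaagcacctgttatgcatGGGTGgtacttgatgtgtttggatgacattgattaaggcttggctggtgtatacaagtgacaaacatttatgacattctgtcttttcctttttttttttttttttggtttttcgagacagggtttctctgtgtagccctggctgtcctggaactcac
S1pr2: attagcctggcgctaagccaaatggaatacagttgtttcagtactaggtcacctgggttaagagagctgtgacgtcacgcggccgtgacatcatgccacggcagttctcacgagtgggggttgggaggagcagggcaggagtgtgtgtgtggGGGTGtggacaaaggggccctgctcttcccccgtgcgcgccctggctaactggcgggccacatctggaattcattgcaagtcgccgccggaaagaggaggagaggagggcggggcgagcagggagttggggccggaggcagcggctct
Each of these had 1 match, whose first printed base lay at -19 for Klf2, -107 for S1pr4 and -98 for S1pr2 counted from the start, and Gpr183 had 0. On either strand, CACCC occurred in 57.5% of all 32851 promoters of this length. The FOXO letters TGTTTAC (3.65% of promoters) and the AP-1 letters TGANTCA (7.81%) had no match in the 4 windows. The motifs do not overlap one another here, and a match is a description of letters, not of binding. GC content was 69.3% for Klf2, 62.0% for S1pr2, 41.0% for S1pr4 and 35.3% for Gpr183.

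Among the other S1P receptors, S1pr3 was at 1.11 and 0.783 FPKM in the Apoe-KO libraries, against 1.79 and 1.66 FPKM in the WT libraries (limma, adjusted p = 0.165). Its Apoe-KO mean of 0.946 FPKM was under the filter, so S1pr3 was tested only through its WT values. S1pr5, the receptor used by NK cells, had 0.612 and 0.303 FPKM in Apoe-KO and 0.240 and 0.401 FPKM in WT libraries, under the filter. Of the 5 receptors 4 were tested and 0 passed, against 1.83% of all tested genes called. Their median log2 difference was -0.03, against 0.00 over all tested genes. The genes that make, export or break down S1P gave 0 of 6 tested members called (median -0.05), against the same 1.83%. The S1P lyase Sgpl1 averaged 29.0 FPKM in Apoe-KO and 34.2 FPKM in WT cells (limma, adjusted p = 0.299), and the S1P phosphatase Sgpp1 20.2 FPKM in Apoe-KO and 17.1 FPKM in WT cells (adjusted p = 0.426). The sphingosine kinase Sphk2 averaged 13.0 FPKM in Apoe-KO and 13.3 FPKM in WT cells, and the lipid phosphatase Ppap2a (now Plpp1) had overlapping ranges, 3.15 and 2.51 FPKM in the Apoe-KO and 2.88 and 3.11 FPKM in the WT libraries. The kinase Sphk1 did not reach 0.05 FPKM in any library.

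Of 15 tested genes for G proteins, RhoGEFs and desensitisation behind these receptors, 0 passed (median -0.15), against 1.83% of all tested genes. Arhgef1, the RhoGEF through which S1PR2 and GNA13 inhibit migration, averaged 387 FPKM in Apoe-KO and 370 FPKM in WT cells (limma, adjusted p = 0.786). Gnai2, the inhibitory G protein subunit behind S1PR1, averaged 349 FPKM in Apoe-KO and 318 FPKM in WT cells. Adrbk1, which encodes the receptor kinase GRK2, averaged 205 FPKM in Apoe-KO and 192 FPKM in WT cells. Rgs1, a damper of chemokine and S1P receptor signaling, averaged 184 ± 38.3 FPKM in Apoe-KO and 154 ± 24.4 FPKM in WT cells (SD, n = 2 each; limma, adjusted p = 0.501), with overlapping ranges.

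Within the KLF family, Klf4 and Klf9 fell and 10 of the 12 tested members did not pass, against 1.83% of all tested genes called. Klf4, a relative of Klf2 that also restrains T cell proliferation, was at 78.9 and 72.8 FPKM in the Apoe-KO libraries, against 162 and 144 FPKM in the WT libraries. Both WT values were far above both Apoe-KO values, with log2 differences of -1.03 within number 1 and -0.97 within number 2 (limma, adjusted p = 0.0202). Klf9 was at 1.96 and 2.14 FPKM in the Apoe-KO libraries, against 6.18 and 4.91 FPKM in the WT libraries (-1.10 ± 0.15 SE, limma adjusted p = 0.0384; 0.0503 without WT replicate 1). Klf3, a repressor of the family, averaged 56.7 FPKM in Apoe-KO and 43.5 FPKM in WT cells (adjusted p = 0.134). Klf6 averaged 143 FPKM in Apoe-KO and 162 FPKM in WT cells, Klf13 33.4 FPKM in Apoe-KO and 41.0 FPKM in WT cells, and Klf10 29.7 FPKM in Apoe-KO and 30.7 FPKM in WT cells, and none of these 3 passed. The family's median difference was -0.05, with 5 differences above and 7 below 0. Klf11 was among those above 0 (limma, adjusted p = 0.0767). It was at 21.0 and 19.6 FPKM in Apoe-KO and 13.6 and 13.3 FPKM in WT libraries. With no FPKM filter Klf4 and Klf9 had limma adjusted p = 0.0546 and 0.0932, against lowest values of 0.00063 and 0.000974 among the settings tried.

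**Figure D3:**
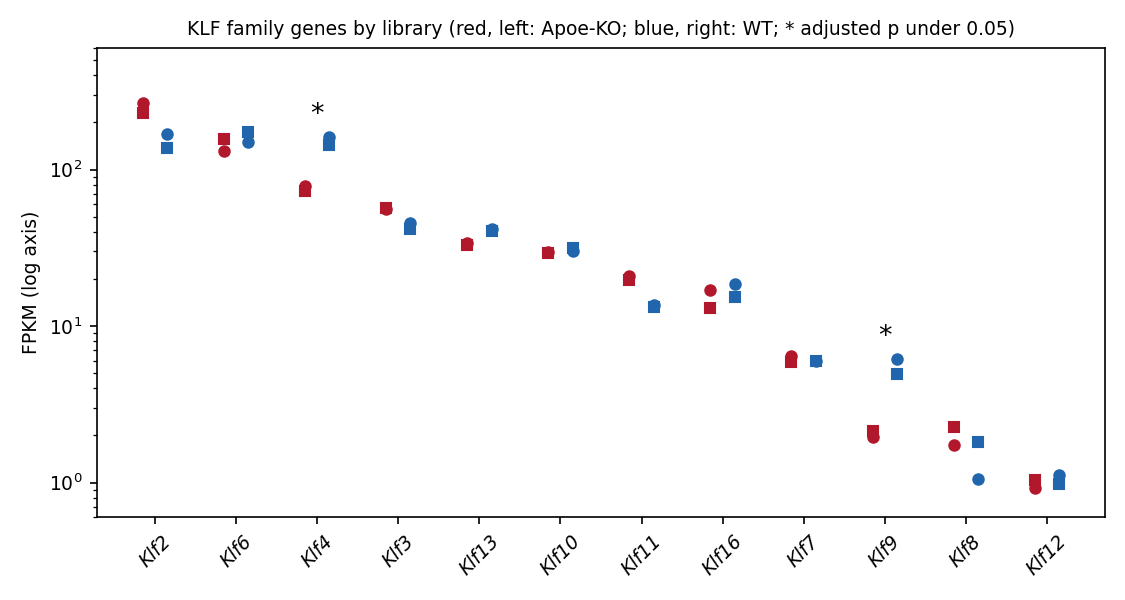
FPKM on a log axis of the 12 tested KLF family genes in each library, ordered by mean level; Apoe-KO libraries are red on the left of each gene and WT libraries blue on the right, circles replicate 1 and squares replicate 2. Asterisks mark Klf4 and Klf9, the members with an adjusted p under 0.05, which are lower in Apoe-KO cells. Klf2, Klf3 and Klf11 are among the members that are higher without passing.

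No tested regulator of Klf2 passed (0 of 10, median -0.12), against 1.83% of all tested genes. Foxo1, which drives Klf2 transcription in T cells, was at 53.0 and 54.5 FPKM in the Apoe-KO libraries, against 65.2 and 65.3 FPKM in the WT libraries (log2 difference -0.27 ± 0.09 SE, limma adjusted p = 0.193). Its part in the Klf2 values was not tested. Mef2d, a factor of the ERK5 pathway that induces Klf2, averaged 38.7 FPKM in Apoe-KO and 56.0 FPKM in WT cells (limma, adjusted p = 0.168; 0.0488 without Apoe-KO replicate 1, range over all settings 0.00271 to 0.417). The kinase Map3k3 of that pathway averaged 31.9 FPKM in Apoe-KO and 32.0 FPKM in WT cells. Icos, a costimulatory receptor whose signal lowers Klf2, averaged 133 FPKM in Apoe-KO and 129 FPKM in WT cells (limma, adjusted p = 0.919).

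Homing genes that are known to be lowered when Klf2 is lost did not move as one. Of the 5 tested, Ccr7 fell and 4 did not pass, against 1.83% of all tested genes called. Ccr7, the receptor for T zone chemokines, was at 36.7 and 31.9 FPKM in the Apoe-KO libraries, against 66.7 and 58.8 FPKM in the WT libraries (log2 difference -0.85 ± 0.12 SE, limma adjusted p = 0.0442). Without WT replicate 1 or 2 its adjusted p was 0.0815 or 0.0585, and it also exceeded 0.05 in 4 settings that kept all libraries (0.0512 to 0.0865). Il7r, the interleukin-7 receptor, had 38.3 and 55.1 FPKM in the Apoe-KO libraries, against 20.0 and 25.4 FPKM in the WT libraries. It did not pass (log2 difference 1.00 ± 0.21 SE, limma adjusted p = 0.0909), though it did without Apoe-KO replicate 1 (0.000427) or 2 (0.0254; range over all settings 0.000427 to 0.147). The integrin Itgb7 averaged 165 FPKM in Apoe-KO and 142 FPKM in WT cells (limma, adjusted p = 0.358).

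Of 11 tested genes for other follicle positioning receptors and adhesion molecules, only Ccr7 was called (median -0.16), against 1.83% of all tested genes. Cxcr5, which guides Tfh cells to the follicle, averaged 213 ± 13.3 FPKM in Apoe-KO and 169 ± 9.81 FPKM in WT cells (SD, n = 2 each; limma, adjusted p = 0.153). Cxcr4, which places germinal centre B cells in the dark zone, was at 189 and 189 FPKM in the Apoe-KO libraries, against 277 and 267 FPKM in the WT libraries. Its log2 difference of -0.53 ± 0.08 SE lay just outside the threshold (limma, adjusted p = 0.0502) and passed with a pseudocount of 0.5 (0.0495) or with libraries rescaled to one FPKM total (0.0418; range over all settings 0.00148 to 0.204). Itgal, a chain of the integrin LFA-1, averaged 306 FPKM in Apoe-KO and 349 FPKM in WT cells (adjusted p = 0.290), and Selplg, the P-selectin ligand, 64.6 FPKM in Apoe-KO and 48.9 FPKM in WT cells (adjusted p = 0.200).

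Genes for enzymes that make or clear the GPR183 ligand were scarce in these libraries. Ch25h, which starts its synthesis, was at 0.288 and 0.160 FPKM in the Apoe-KO libraries, against 0.580 and 0.473 FPKM in the WT libraries, and Cyp7b1 stayed under 0.2 FPKM, both under the filter. Of the 2 tested, the sterol hydroxylase Cyp27a1 averaged 4.88 FPKM in Apoe-KO and 2.53 FPKM in WT cells (limma, adjusted p = 0.0732; 0.0451 without Apoe-KO replicate 1 and 0.0230 without Apoe-KO replicate 2, range over all settings 0.00819 to 0.270). Hsd3b7 averaged 2.37 FPKM in Apoe-KO and 2.63 FPKM in WT cells.

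Cd69 was also set beside genes induced early in T cell activation. Of 16 tested, 4 fell and 12 did not pass, against 1.83% of all tested genes called in either direction. The median log2 difference was -0.22. Those that fell were Nr4a1, Nr4a2 and Nr4a3, which encode orphan nuclear receptors, and the AP-1 subunit Fosl2, at -1.01, -1.28, -2.94 and -2.63 on the log2 scale, and the Nr4a1 call (limma, adjusted p = 0.0496) ended in 5 settings that kept all libraries (0.0510 to 0.102). These 4 were known from earlier results of the same data and are not independent evidence of a direction. Other early genes had differences of the opposite sign: Fos averaged 915 FPKM in Apoe-KO and 707 FPKM in WT cells (adjusted p = 0.101), and Jun 373 FPKM in Apoe-KO and 306 FPKM in WT cells (adjusted p = 0.190). Junb averaged 1946 FPKM in Apoe-KO and 1730 FPKM in WT cells, and Fosb 421 FPKM in Apoe-KO and 470 FPKM in WT cells. Differences within the early genes thus ran in both directions, with Cd69 among the lower ones.

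**Figure D4:**
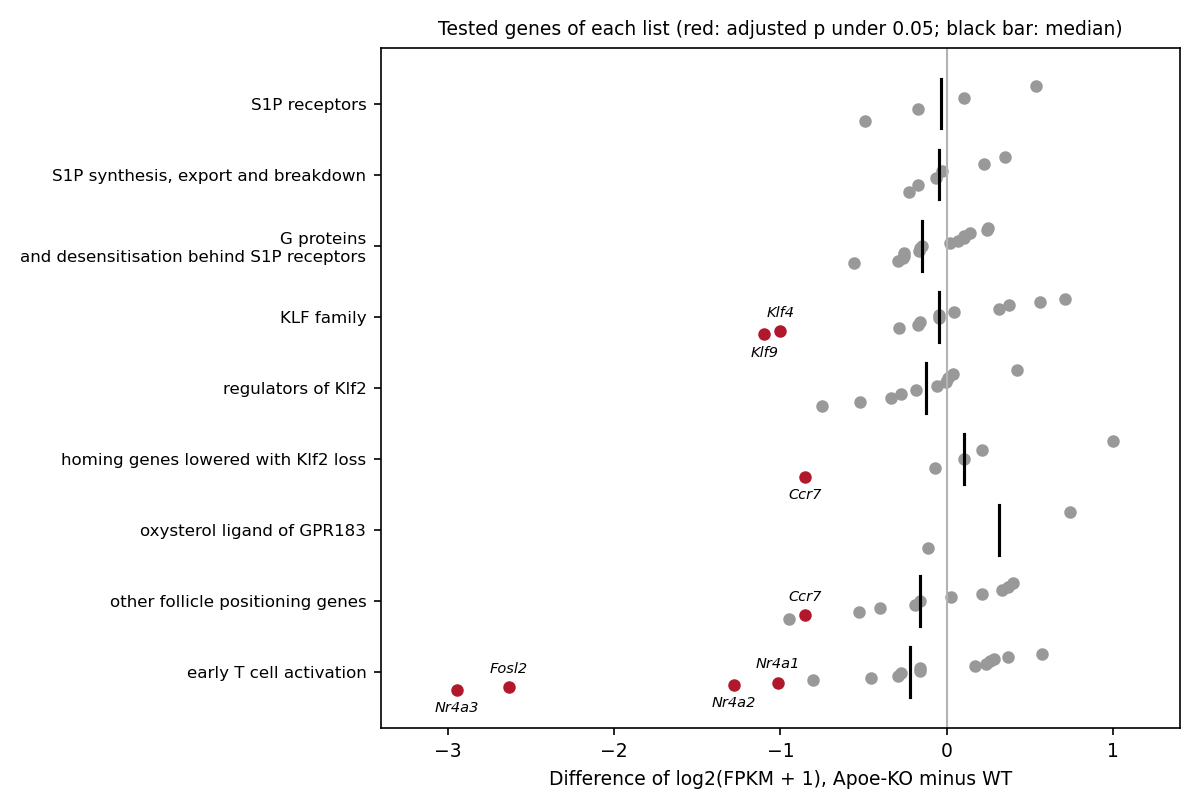
Differences of log2(FPKM + 1), Apoe-KO minus WT, of the tested genes of 9 lists, one point per gene, with called genes in red and named, others in grey and each list's median as a black bar. The called genes are Klf4, Klf9, Ccr7 (in both lists that hold it), Nr4a1, Nr4a2, Nr4a3 and Fosl2, all lower in Apoe-KO cells.

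The genes most like each of the 6 in their values over the 4 libraries were picked by the distance between log2(FPKM + 1) values centred on their mean, among 7032 other genes with a mean FPKM of at least 10. For Klf2 they were Thap3, Ly6c2 and Sema4a, at distances of 0.03 each. Thap3, the nearest, was at 59.7 and 52.5 FPKM in the Apoe-KO libraries, against 37.2 and 30.4 FPKM in the WT libraries. For S1pr4 they were Klc2, Gm20605 and Pitpnm1, and for Cd69 Hsp90b1, an endoplasmic reticulum chaperone, Arf4 and Wsb1. Hsp90b1 was at 76.3 and 98.0 FPKM in the Apoe-KO libraries, against 137 and 170 FPKM in the WT libraries. For Gpr183 they were Mrps9, Ict1 and Cds2, for S1pr1 Arf6, Rbm48 and Lrrfip1, and for S1pr2 Stk40 and Dpp9. Among the 6 genes themselves, Klf2 was nearest to S1pr4 (distance 0.17) and farthest from Cd69 (1.63).

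Klf2, the S1P receptors, Gpr183 and Cd69 are also expressed outside Tfh cells, and markers of other cells differed between the genotypes. In bulk RNA, fewer cells of a type and less RNA per cell cannot be told apart. B cell markers, from cells that also express genes among the 6, were lower in the Apoe-KO libraries. Of 10 B cell markers 4 fell and 6 did not pass (median -0.73), against 1.83% of all tested genes called in either direction. The 10 markers summed to 204 and 195 FPKM in Apoe-KO and 334 and 329 FPKM in WT libraries. Macrophage and monocyte markers summed to 271 and 251 FPKM in Apoe-KO and 217 and 194 FPKM in WT libraries, with 1 of 10 called, Vsig4, higher. Vsig4 was at 2.25 and 4.72 FPKM in Apoe-KO and 0.148 and 0 FPKM in WT libraries, so it passed the filter only through the Apoe-KO values. Dendritic cell markers summed to 19.9 and 22.4 FPKM in Apoe-KO and 10.7 and 10.4 FPKM in WT libraries, with 1 of 5 tested called, Itgax, higher. CD8 T and NK cell markers summed to 30.9 and 38.6 FPKM in Apoe-KO and 22.9 and 22.6 FPKM in WT libraries, with 0 of 7 tested called. Neutrophil markers summed to 46.8 and 63.1 FPKM in Apoe-KO and 7.81 and 6.18 FPKM in WT libraries. Of 8, S100a8, S100a9 and Retnlg were tested and called higher, and Elane and Camp were listed at 0 in all libraries. Retnlg, at 3.67 and 4.80 FPKM in Apoe-KO and 0.124 and 0.297 FPKM in WT libraries, passed the filter only through the Apoe-KO values.

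Markers of naive or central memory T cells, which carry high Klf2 and S1pr1, summed to 864 and 807 FPKM in Apoe-KO and 860 and 795 FPKM in WT libraries, with overlapping groups. Most of that sum was Tcf7, at 646 and 576 FPKM in Apoe-KO and 636 and 573 FPKM in WT libraries. Of these 7 markers only Ccr7 was called, and it was lower, against 1.83% of all tested genes called in either direction. Il7r, given above, and Igfbp4, at 39.3 and 31.7 FPKM in Apoe-KO and 22.1 and 21.3 FPKM in WT libraries (limma, adjusted p = 0.0858), were higher in both Apoe-KO libraries without passing. Endothelial cells also express Klf2 and S1pr1. Their defining markers Cdh5, Kdr, Emcn, Vwf, Cldn5 and Lyve1 were all under 0.25 FPKM, Tek was listed at 0, and Pecam1, at 51.1 and 51.2 FPKM in Apoe-KO and 51.9 and 54.7 FPKM in WT libraries, made up nearly all of that sum. The part of RNA from any of these other cells in the Klf2, S1pr4 and Cd69 values was not tested.

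**Figure D5:**
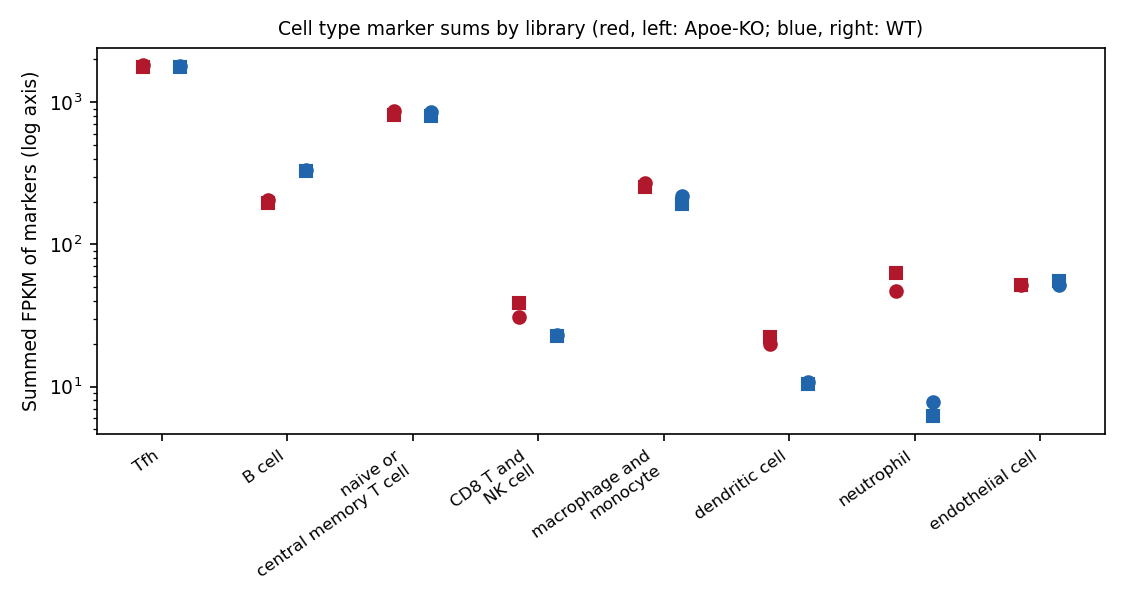
Summed FPKM, on a log axis, of the markers of 8 cell types in each library; Apoe-KO libraries are red on the left and WT libraries blue on the right, circles replicate 1 and squares replicate 2. Tfh and naive T cell sums are similar between the genotypes, B cell sums are lower and neutrophil and dendritic cell sums higher in the Apoe-KO libraries.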

How the data were processed

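RNA of Tfh cells was sequenced in 2 Apoe-KO and 2 WT libraries, grouped by the sample titles. The deposited values are FPKM per gene symbol, computed by the authors; per the submitters' processing notes the tools were Cuffdiff 2.2.0, TopHat2 2.0.13 and CASAVA 1.8.2, with mm10 as the build. Their order, annotation, strand setting and filters are not given in the sources here, so overlapping or antisense genes cannot be separated. In 2 rows, Bcl6 and Cxcr5, a space replaces a tab, and values were split on white space. Read depth is unknown: at values of 0.001 to 0.15 FPKM no pair of libraries shared a single ratio (within 0.04 on the log2 scale) in more than 19.0% of genes, so whole reads were not recovered. That share was 19.0% and 18.5% for libraries of equal number, against 4.32% to 6.29% for other pairs.

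Values were taken as log2(FPKM + 1), which understates changes of low genes, for the 11187 of 23997 genes whose mean reached 1 FPKM. Apoe-KO was compared with WT by limma 3.58.1 in R 4.3.3 (two-sided moderated test, prior variance following the mean level), and p-values were adjusted by Benjamini-Hochberg across all genes tested; the procedure was tested on simulated data. Fold values are ratios of mean FPKM. The lists hold 158 symbols, each present in the table, 5 by an older symbol. The 6 genes, the lists and the rule for naming genes (called genes of a list and the 4 most abundant others) were chosen with earlier results of these data known, the motifs after their values were seen, and genes such as Ch25h, Cyp7b1, Sphk1 and S1pr5 are named outside the rule. The 13 alternatives vary the pseudocount, filter, scaling, variance model, replicate block and libraries. The values of 2 genes that these rules pick are not reported here.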

Additional observations from a re-analysis of the deposited data

How the results depend on the processing

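The differences of Klf2, S1pr1, S1pr2, S1pr4, Gpr183 and Cd69 kept their sign in all 13 alternatives, which was largely fixed in advance. For these genes the libraries of the genotypes did not overlap, so leaving out a library or changing the pseudocount could not reverse a sign. Changing the filter, variance model or block left the estimates as they were, and only rescaling could have reversed a sign. None of the 6 passed with another pseudocount, filter, scaling or variance model. In a fit with a replicate block, a pairing absent from the labels, 4 passed (limma): Klf2 0.71 (adjusted p = 0.00108), S1pr4 0.54 (0.00418), Gpr183 0.21 (0.0244) and Cd69 -0.80 (adjusted p = 0.00117), while S1pr1 and S1pr2 had adjusted p = 0.0905 and 0.0589. The block gave 1908 genes higher and 1776 lower over all genes, against 106 and 99 without it. The deviations of equal-numbered libraries correlated across genes (r = 0.21), but 2 pairs and no label do not make a pairing. The cause of the added calls was not tested. Klf2 and Cd69 also passed in some fits with 1 library left out and not in others. Such fits keep a single library in a group, so for the 6 genes only sizes are given. With 1 library left out the differences ranged from 0.56 to 0.86 for Klf2, 0.06 to 0.15 for S1pr1, -0.27 to -0.07 for S1pr2, 0.38 to 0.70 for S1pr4, 0.16 to 0.26 for Gpr183 and -1.01 to -0.60 for Cd69. The difference in the log2 ratio of S1pr2 to S1pr1 ranged from -0.43 to -0.13, and the counts over all genes from 59 to 347 higher and 71 to 343 lower. No filter gave 35 genes higher and 41 lower, and a mean FPKM of at least 5 gave 51 higher. Small differences that did not pass changed sign: with libraries rescaled to one FPKM total Icos (-0.0080), with libraries rescaled to one median Map3k3 (0.0077), and with 1 library left out Sphk2 (-0.18 to 0.12), Icos (-0.16 to 0.24), Map3k3 (-0.023 to 0.018), Arhgef1 (-0.034 to 0.17), Junb (-0.029 to 0.37) and Ppap2a (-0.19 to 0.054). With unknown depth no counting interval can be given, and 2 libraries a group limit what the test can call.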
